A study of Mus musculus with 3 samples.

Results

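The 10 genes described here encode the growth factor receptors, junction proteins and a transcription factor by which blood vessel endothelium is recognised: Kdr, Flt1, Tek, Tie1, Cdh5, Pecam1, Esam, Sox18, Gja5 and Eng. They were taken as a list of symbols, chosen with earlier results of these data known. Each was represented by its probe set annotated to that symbol alone, and all 10 were measured among 19938 genes with such a probe set. Each had 1 probe set, so no second measurement of a gene was at hand. RNA came from kidneys of C57BL/6 mouse embryos at embryonic day 11.5 that were kept on a Transwell filter for 48 h, and 1 Affymetrix Mouse Gene 1.0 ST array was made for each of 3 media. The media were DMEM with 10% fetal bovine serum (serum), DMEM without serum (serum-free), and serum-free DMEM to which the vitamin A derivative retinoic acid was added (retinoic acid). No genotype or transgene is named in the labels, and all 3 groups share strain, stage and culture time. The sources used here give neither the dose of retinoic acid nor the number of kidneys behind each array. An explant on a filter is cut off from the circulation, so its vessels carry no blood flow.

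With 1 array per medium there is no error and no test, and every difference below describes these 3 arrays. Values are log2 of the deposited intensity, and differences are on the same scale, so that 1 stands for 2-fold. A gene was read as at or above the floor when the higher of the values compared reached 7.12, the median of all gene-level values. The level of one probe set is not set against that of another, since probes differ in how brightly they bind. All 11 genes fixed as markers of the embryonic kidney were at or above the floor in every comparison, and so were the 10 endothelial genes on every array. A lower level in whole explants can mean fewer endothelial cells or less RNA per cell, and these cannot be told apart here. Sex-linked RNA also moved between the arrays: Xist stood at 10.84 in serum, 11.48 without it and 9.79 with retinoic acid, and the Y-linked Eif2s3y at 8.38, 7.46 and 8.64. The part of embryo sex in the results was not tested.

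As background, vessels of the developing kidney form from endothelial precursors in and around the mesenchyme as the ureteric bud branches. VEGF made by epithelium and nephron precursors acts through the receptor kinase KDR, while FLT1 binds VEGF strongly and acts largely as a trap for it. Angiopoietins act through TEK, with TIE1 as its partner receptor. VE-cadherin, PECAM1 and ESAM hold neighbouring endothelial cells together, SOX18 is a transcription factor of young vessels, the connexin GJA5 couples cells of arteries, and endoglin is a co-receptor for BMP9 and TGF-beta. Several of these genes are not strictly endothelial: PECAM1 is also made by platelets and leukocytes, endoglin by activated macrophages and stromal cells, and GJA5 by renin-producing cells and heart muscle.

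The sequences just upstream of transcription starts were read for members in the RefSeq promoter table (GRCm38.p6), which held 6 of the 10. Cdh5, Pecam1, Esam and Sox18 had no entry. Those of Gja5, Kdr and Flt1 are shown, 250 bases up to the start and 5′ to 3′ on the gene's strand, because these genes differ in their data: Gja5 has the widest differences, Kdr is close to the members' median, and Flt1 is nearly level. Capitals mark matches, on either strand, to words found in ETS sites (AGGAAG or CGGAAG) and SOX sites (ACAAT or ACAAAG), which endothelial transcription factors bind. The retinoid receptor half-site AGGTCA was searched as well. Shorter parts of these words, such as GGAA or its reverse complement TTCC, are not marked where they stand alone, as in the Kdr window. The 2 ETS words share their last 5 letters and the 2 SOX words their first 4, so a position can match only one of each pair.

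Gja5, chr3:97032152-97032401, plus strand: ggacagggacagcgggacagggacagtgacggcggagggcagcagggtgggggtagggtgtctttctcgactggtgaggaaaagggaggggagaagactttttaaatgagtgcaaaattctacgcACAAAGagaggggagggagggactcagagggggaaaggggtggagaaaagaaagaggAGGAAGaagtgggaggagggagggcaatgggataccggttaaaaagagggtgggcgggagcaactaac
Kdr, chr5:75978456-75978705, minus strand: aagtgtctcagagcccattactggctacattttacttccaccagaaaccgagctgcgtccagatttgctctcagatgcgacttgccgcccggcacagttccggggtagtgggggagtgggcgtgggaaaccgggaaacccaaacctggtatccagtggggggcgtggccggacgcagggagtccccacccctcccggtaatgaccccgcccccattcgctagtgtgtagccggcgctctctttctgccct
Flt1, chr5:147726012-147726261, minus strand: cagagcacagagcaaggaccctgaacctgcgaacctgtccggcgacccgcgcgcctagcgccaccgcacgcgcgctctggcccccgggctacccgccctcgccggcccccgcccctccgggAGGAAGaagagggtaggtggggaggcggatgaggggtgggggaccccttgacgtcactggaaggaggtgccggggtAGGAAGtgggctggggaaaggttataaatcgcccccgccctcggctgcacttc

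The Gja5 window held 1 SOX word, starting 125 bases before the transcription start, and 1 ETS word, starting 68 bases before it. The Flt1 window held 2 ETS words, at 129 and 53 bases before the start, and the Kdr window none of the words searched. Of the 6 windows, an ETS word was present in 4 (Gja5, Flt1, Tie1 and Eng) against 39.2% of all 32851 windows of this length, and a SOX word in 3 (Gja5, Tek and Eng) against 38.8%. AGGTCA was in none of the 6 and in 14% of all windows, which says only that these letters are not in these 250 bases. The GC content of the windows was 56.4% for Gja5, 61.6% for Kdr and 70.4% for Flt1, with a median of 52.4% over all windows.

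Among the VEGF receptors, Kdr (Entrez Gene 16542), the main signalling receptor, stood at 8.78 in serum, 9.27 without serum and 8.92 with retinoic acid. It was highest without serum, by 0.49 or 1.41-fold over serum, and retinoic acid medium lay 0.35 below serum-free medium. Flt1 (14254), the trap receptor, was at 7.95 (an intensity of 247) in serum, differed by 0.05 without it (256; -0.02 once each array was centred on its median) and had exactly its serum value again with retinoic acid. Median polish, the last step of the authors' processing, makes such ties common, so a tie does not measure equal expression. Between serum and serum-free medium the difference of Kdr exceeded that of Flt1 by 0.44.

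Of the TIE receptors, Tek (21687), the angiopoietin receptor, stood at 7.70 in serum, 8.10 without it and 7.82 with retinoic acid. Tie1 (21846), its partner, had intensities of 395, 571 and 513 on the same arrays, which is 8.62 in serum and 9.16 without it on the log2 scale. Both were lowest in serum and highest in serum-free medium. Tie1 differed more between serum-free medium and serum (0.53 against 0.40 for Tek) and less between retinoic acid and serum-free medium (-0.15 against -0.28), so with retinoic acid it was 0.38 above serum while Tek was 0.11 above it.

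The junction genes had the same order of media. Cdh5 (12562), which encodes VE-cadherin, stood at 10.89 in serum, 11.70 without it and 11.34 with retinoic acid, or 1892, 3321 and 2598 in intensity. It was 1.76-fold higher without serum than with it, and 1.28-fold lower with retinoic acid than in serum-free medium. Pecam1 (18613) stood at 9.36, 9.89 and 9.63, and Esam (69524), an adhesion molecule of endothelial tight junctions, at 8.65, 9.28 and 8.96. Against serum-free medium, retinoic acid values were lower by 0.35 for Cdh5 (a difference of -0.35), and the differences were -0.32 for Esam and -0.25 for Pecam1. All 3 junction genes with retinoic acid still lay above their serum values, by 0.46 for Cdh5, 0.31 for Esam and 0.28 for Pecam1.

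Sox18 (20672) stood at 8.61 in serum, 9.08 without it and 8.51 with retinoic acid. It was 0.48 higher without serum than with it. Its difference between retinoic acid and serum-free medium, -0.57 or 1.48-fold, was the second widest of the 10, and brought it to 0.09 below the serum value. Sox7, which belongs to the same SOX subgroup, stood at 8.88, 9.67 and 9.43 and kept more of its serum-free level, with differences of 0.79 and -0.24.

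Gja5 (14613), the arterial connexin, had the widest differences of the 10 in all 3 comparisons. Its level was 8.87 in serum, 9.86 without serum and 7.97 with retinoic acid, which in intensity is 468, 931 and 251. Without serum it was 1.99-fold higher than with serum, just under the 2-fold size used here, and with retinoic acid it was 3.71-fold lower than in serum-free medium. Among the 10111 genes at or above the floor it ranked 4 from the lowest by this difference. With retinoic acid it was also 1.87-fold below its serum level, a difference of -0.90, while the other members lay between -0.18 and 0.46 there.

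Eng (13805), the endoglin gene, was the 1 member whose level was not highest without serum in the deposited values. It was highest in serum at 8.98, and lay at 8.81 without serum and 8.80 with retinoic acid. It differed by -0.17 when serum was left out, and by a further -0.01 with retinoic acid added.

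**Figure D1:**
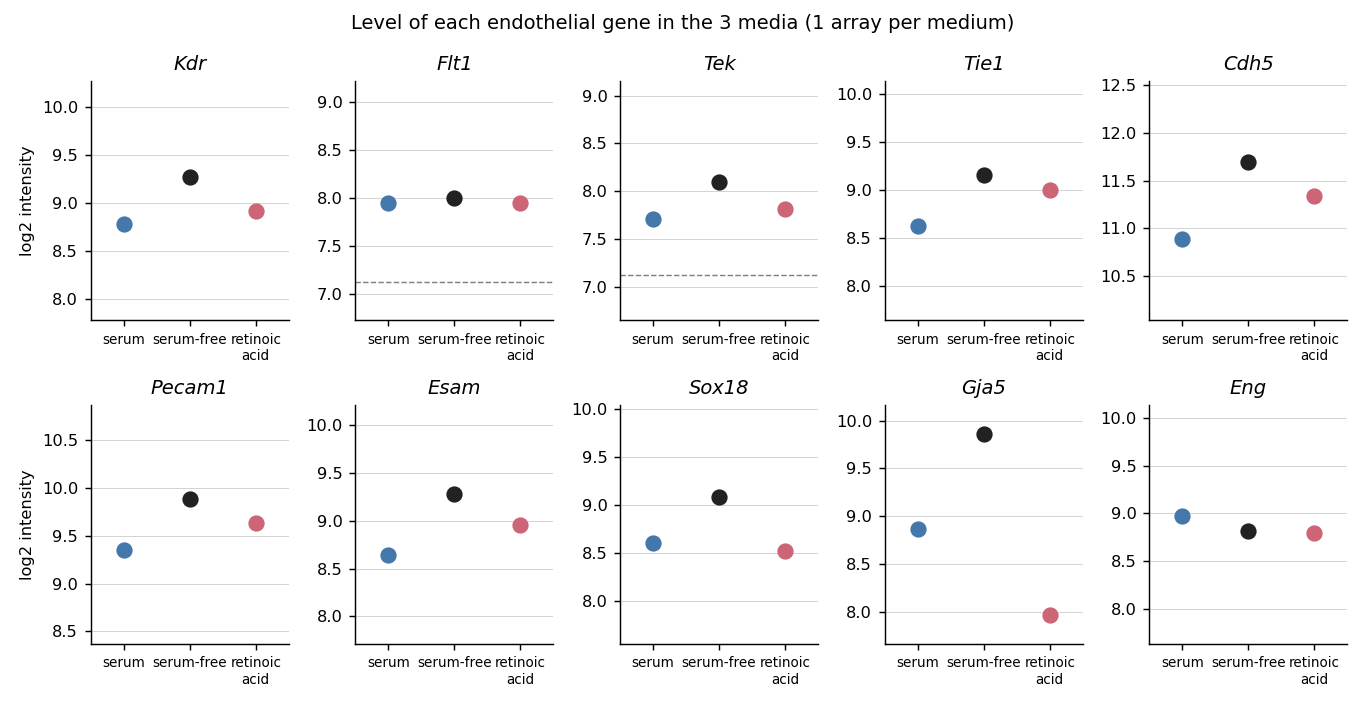
Each panel plots the log2 intensity of 1 gene (vertical axis, same span in each panel) on the serum, serum-free and retinoic acid arrays, 1 point per array and no error, with the floor of 7.12 dashed where it falls in the panel. In 9 panels the serum-free point is the highest, though for Flt1 by 0.05 only (-0.02 with each array centred on its median), in the Eng panel the serum point is, and Gja5 spans the widest range, from 7.97 to 9.86.

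Set against all genes, the first question is how the 10 genes stood when serum was left out. Their median difference was 0.51, while that of all 10156 genes at or above the floor was -0.00. Of the members 9 were above 0, against 19.5% of all genes, and 1, Eng, was below 0, against 51%. The other 29.5% of genes were exactly equal, which lowers both shares, and 0 members were. With each array centred on its median, Flt1 joined Eng below 0 and 8 were above it, while the median of all genes became -0.07. The shares of all genes just given are for the uncentred values and were not counted after centring. With cyclic loess scaling instead, 9 members were above 0 and 1 below. The median of all genes at or above the floor was then 0.01, so far more than 19.5% of them lay above 0. The same limit holds wherever these shares are used below. Of the 10, 8 lay above the 95th percentile of all genes (0.27), a place held by 5% of genes by construction. Since the members were chosen with earlier results of these data known, the shares of all genes here and below are a description only. At least 2-fold, 0 members were higher, where 0.876% of genes were, and 0 were lower, where 0.699% were. At least 1.5-fold, 3 members were higher (Cdh5, Esam and Gja5), against 2.01% of genes.

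With retinoic acid present in serum-free medium, all 10 member differences were below 0, which held for 35.1% of all 10111 genes, and 0 were above 0, which held for 29.5%. The other 35.4% of genes were exactly equal, and 0 members were. Both shares are therefore lower than they would be among genes without a tie. They ran from -1.89 to -0.01 with a median of -0.30, against a median of 0 over all genes. Below the 5th percentile of all genes (-0.33) lay 4 members, namely Kdr, Cdh5, Sox18 and Gja5, against 5% of genes. Gja5 was the 1 member at least 2-fold lower, where 0.613% of genes were. It was also the 1 member at least 1.5-fold lower, where 1.94% of genes were, and 0 were 1.5-fold higher, where 2.41% were. This comparison and the one before it share the serum-free array, so they are not independent of each other.

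Set against serum, the retinoic acid array gives a comparison without the serum-free array, though it shares an array with each of the others. The members' median was 0.13 against -0.01 over all 10169 genes. Of the members 6 were above 0, where 21.2% of genes were, and 3 were below 0, where 51.3% were. The remaining 1, Flt1, was exactly equal, where 27.5% of genes were. These shares hold for the deposited scaling only. With cyclic loess scaling instead, 7 members were above 0 and 3 below. The median of all genes at or above the floor was then 0.01, so far more than 21.2% of them lay above 0. Cdh5 at 0.46 and Tie1 at 0.38 lay above the 95th percentile of 0.33, a place held by 5.01% of genes, and Gja5 lay below the 5th percentile of -0.45. At least 2-fold, 0 members were higher (1.04% of genes) and 0 lower (0.816%). At least 1.5-fold, Gja5 was lower (2.84% of genes) and 0 members were higher (2.46%).

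**Figure D2:**
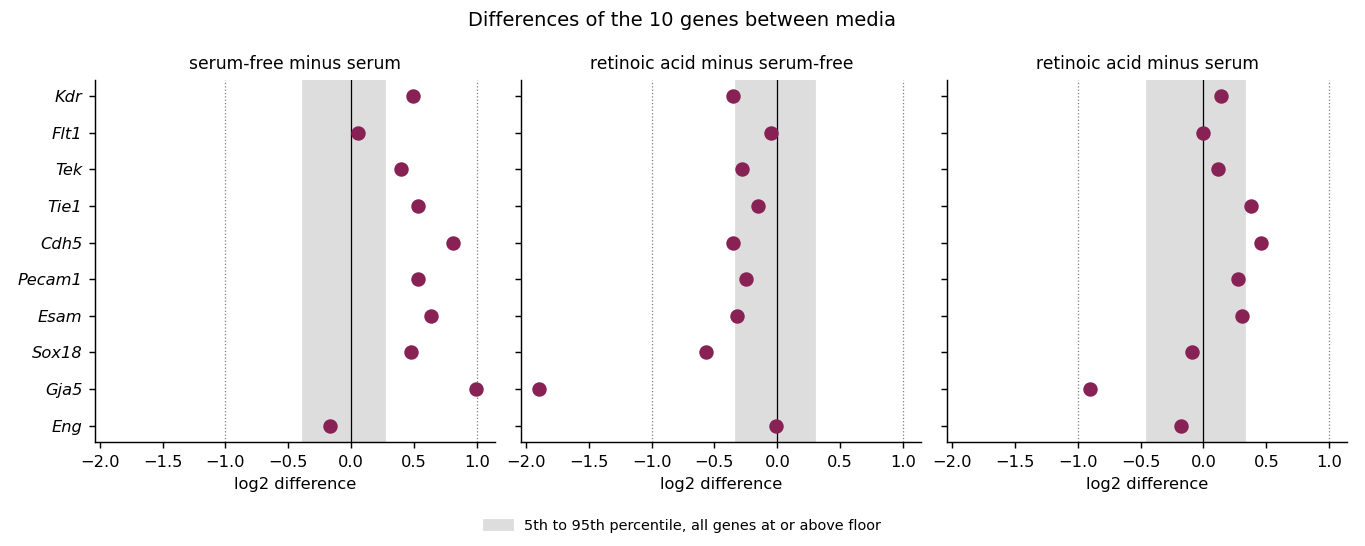
Points are the log2 differences of the 10 genes in each of the 3 comparisons, on a horizontal axis with dotted lines at 2-fold, and the grey band spans the 5th to 95th percentile of all genes at or above the floor. Without serum 8 points lie to the right of the band, with retinoic acid against serum-free medium 4 lie to its left, and Gja5 is the farthest point in the second panel at -1.89.

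The ligands of these receptors did not follow one course. Vegfa, the main ligand of KDR, stood at 9.56 in serum, 9.31 without it and 9.45 with retinoic acid, so it was lowest where Kdr was highest. Pgf, a ligand of FLT1, stood at 9.16, 10.09 and 9.40, with differences of 0.94 without serum and -0.69 when retinoic acid was added. Vegfd, a ligand of FLT4, was highest in serum and went down to 8.13 with retinoic acid, 0.85 below serum (a difference of -0.85). Vegfb was listed at 9.30 on all 3 arrays and Vegfc differed by at most 0.16 (7.37, 7.35 and 7.21).

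Of the other VEGF receptors, Nrp2, a co-receptor of veins and lymphatics that also serves semaphorins, stood at 7.48, 8.35 and 7.82, with differences of 0.87 and -0.53. Nrp1, the co-receptor of arteries, stood at 10.54, 10.61 and 10.45. Flt4, the VEGFC receptor, had one value under the floor on both the serum and the serum-free array, and stood at 7.22 with retinoic acid, 0.22 higher. Of 8 VEGF ligands and co-receptors, 2 (Pgf and Nrp2) were at least 1.5-fold higher without serum among 7 at or above the floor, against 2.01% of genes, and the median was 0.

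Both angiopoietins were highest in serum and lowest with retinoic acid. Angpt1, the agonist of TEK that mural and mesenchymal cells make, stood at 7.53, 7.33 and 7.03, the last under the floor. Angpt2, which is made by endothelium and other cells and can block TEK, stood at 8.14, 7.63 and 7.29, so that with retinoic acid it was 1.81-fold lower than in serum. Ptprb, the phosphatase that restrains TEK, went the other way, at 7.38, 7.53 and 7.82. The fourth gene of that list, Angpt4, was under the floor at 5.58 on every array.

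In the endoglin axis, the ligand genes Gdf2 (BMP9) and Bmp10 were listed under the floor, at 5.04 and 3.36 on all 3 arrays. Acvrl1, the endothelial receptor that works with endoglin, stood at 8.12, 8.24 and 8.16, and Bmpr2 at 10.73, 10.66 and 10.84. Tgfbr2, the TGF-beta receptor, was higher without serum by 0.53, and the difference was -0.37 when retinoic acid was added, while Tgfb1 had 0.58 and -0.37. Of the 4 target genes of BMP signalling, Smad6, Smad7 and Id3 stood the other way round, and Id1 did not. Smad6, an inhibitor induced by the pathway, was at 8.62 in serum, 7.96 without it and 8.35 with retinoic acid, Smad7 at 8.72, 8.28 and 8.57, and Id3 at 10.03, 9.61 and 10.00. Id1 went from 9.46 to 9.29 and 9.19. Of 10 genes of this list at or above the floor, 1 (Smad6) was at least 1.5-fold lower without serum, where 2.07% of all genes were, and the list median was -0.07.

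**Figure D3:**
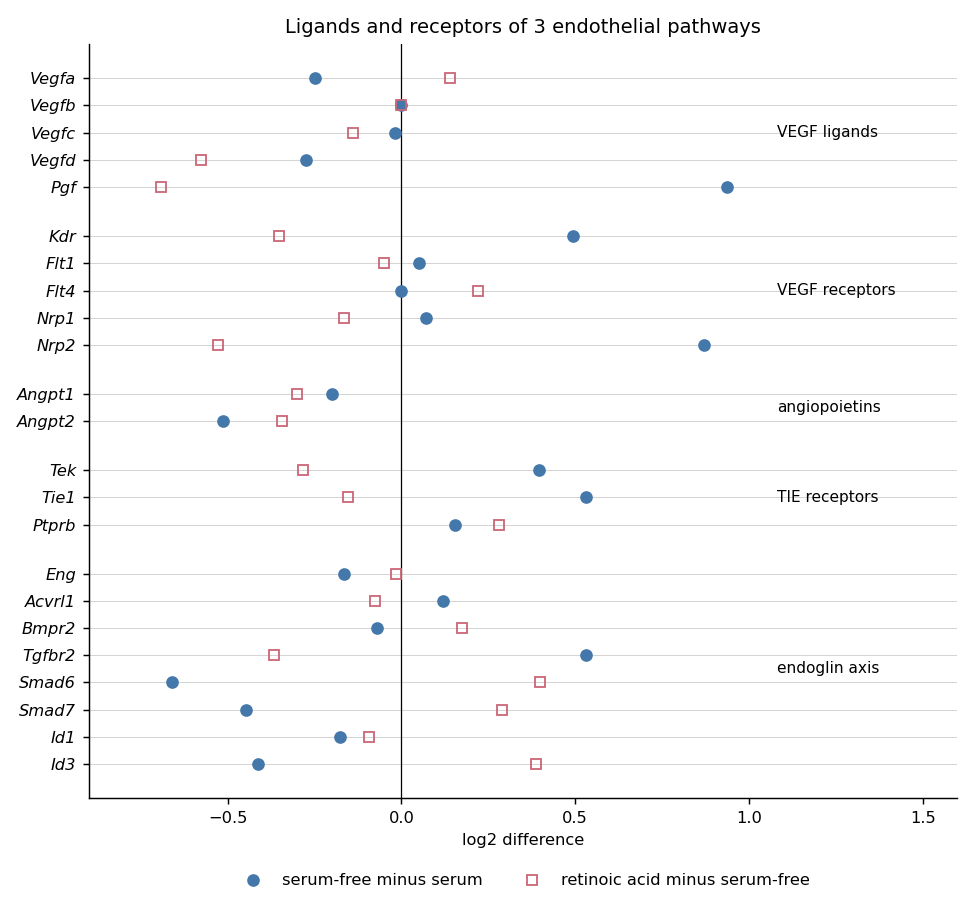
Rows are genes of the VEGF, angiopoietin and endoglin pathways, and the horizontal axis is the log2 difference, with filled circles for serum-free minus serum and open squares for retinoic acid minus serum-free. Pgf (0.94 and -0.69) and Nrp2 (0.87 and -0.53) lie farther apart than Kdr (0.49 and -0.35), while Smad6 (-0.66 and 0.40) and Vegfa (-0.25 and 0.14) have their symbols the other way round.

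Other endothelial genes, outside the 10, were taken from lists of known markers. Of 22 further junction and surface genes 19 were at or above the floor without serum, with a median of 0.31. Of these 16 were above 0 (19.5% of all genes), 4 at least 1.5-fold higher (2.01%) and 0 lower by that size (2.07%). Icam2, an adhesion gene, differed by 0.80, the tight junction gene Cldn5 by 0.62, and the surface lectin gene Cd93 by 0.68. Stab1, a scavenger receptor of sinusoidal endothelium and of macrophages, was the gene of this list that was 2-fold higher, at 1.15. With retinoic acid added, the list median was -0.21 and 15 of 19 were below 0 (35.1% of all genes). Calcrl, the adrenomedullin receptor gene, differed by -0.76, while Jam2, another junction gene, differed by 0.69 and was the 1 gene of the list at least 1.5-fold higher (2.41% of all genes). Emcn, the endomucin gene, moved little, at 10.98, 11.09 and 11.10.

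Arterial genes allow Gja5 to be set beside its class. Their median was 0.31 over 11 genes without serum, with Gja4 at 0.77, Notch4 at 0.76 and the Notch ligand gene Dll4 at 0.71. Jag1, a Notch ligand made by many cell types, differed by -0.65. With retinoic acid added the median was -0.20, 9 of 11 were below 0 (35.1% of all genes) and 1 was at least 1.5-fold lower (1.94%), namely Hey2, a Notch target, at -0.68. The endothelial connexin Gja4 differed by -0.45 there, and Gja5 by 1.45 more than Gja4 in the same direction (a difference of -1.45 between them). Against serum, Gja4 with retinoic acid was higher by 0.32 where Gja5 differed by -0.90. Of the 15 other connexin genes measured, 4 were at or above the floor when retinoic acid was set against serum-free medium, and 0 of them were 1.5-fold lower. Gja1, the most widely made connexin, stood at 11.33, 10.82 and 10.59.

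Endothelial transcription factors had a median of 0.10 over 11 genes without serum and -0.04 with retinoic acid added. Erg, an ETS factor that maintains endothelial identity, stood at 7.89, 8.33 and 8.24, and Fli1, a related factor, at 8.77, 8.97 and 8.77. Mef2c was 0.42 higher without serum, and its difference with retinoic acid added was -0.68. Gata2, which is also made in the urogenital mesenchyme and nervous system, was the exception by size, at 10.16, 9.88 and 11.02, 2.20-fold higher with retinoic acid than in serum-free medium, where 1.05% of all genes were at least 2-fold higher. Lmo2, a partner of TAL1 in blood and vessel precursors, went up over the 3 media, at 8.42, 8.79 and 9.13. Klf2, a gene that blood flow induces in endothelium, was listed at 7.24 on all 3 arrays, near the floor.

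Venous and lymphatic genes had medians of 0.00 over 5 genes and 0.13 over 7 genes in the same comparisons. Prox1, the lymphatic regulator, which other cells of the embryo also make, stood at 6.68, 7.44 and 6.63, over the floor without serum alone. Lyve1, a receptor gene of lymphatic vessels and macrophages, stood at 6.51, 6.44 and 7.25. The venous genes Ephb4 (9.55, 9.55 and 9.68) and Nr2f2 (11.52, 11.49 and 11.49) were nearly level. Over the 80 measured genes of the endothelial and pathway lists other than the 10, the median was 0.08 without serum and -0.08 with retinoic acid added. At or above the floor it was 0.13 over 66 genes and -0.12 over 68. The members' medians of 0.51 and -0.30 lay farther from 0, but members and lists were chosen with earlier results of these data known. The 80 also include ligands and other pathway genes. The junction and surface list (0.31 and -0.21) and the arterial list (0.31 and -0.20) had the members' signs.

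Other cell types of the explant moved between the same arrays. Without serum the median of all 18 macrophage genes was 1.27, and 12 of the 18 were at least 2-fold higher with their serum-free value at or above the floor, against 0.876% of all genes. Their summed intensity over all 18 was 4279 in serum, 12201 without serum and 8721 with retinoic acid, while that of the 10 endothelial genes was 5598, 8531 and 6420. Such sums are weighted to the brightest probe sets, and Cdh5 alone made up 1892, 3321 and 2598 of the endothelial ones. The macrophage genes Cd163 and Cd14 were under the floor on all 3 arrays, at 4.42 and 5.27, while Csf1r stood at 7.74, 9.08 and 9.28. With retinoic acid added, the median of all 18 was -0.20, or -0.51 over the 13 at or above the floor. Of these 13, 9 were below 0 (35.1% of all genes) and 4 above (29.5%). Cd68, Mrc1, C1qc and C1qb, the macrophage genes with the widest differences, differed by -1.16, -1.02, -0.51 and -0.30 there. Csf1r, at 0.20, was among the 4 above 0. Since endothelium and macrophages share some of these genes, Pecam1 and Eng among them, the part of macrophages in the endothelial differences was not tested.

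Genes of the cells that wrap vessels were measured as well. Pericyte and mural genes had a median of 0.05 over 7 genes without serum (-0.02 with each array centred on its median) and of -0.31 with retinoic acid added. Pdgfrb, the receptor by which endothelium recruits pericytes, stood at 10.97, 11.06 and 10.38, and Rgs5, a pericyte gene, at 9.71, 9.43 and 8.82. The summed intensity of the list was 5159, 5286 and 3966. Smooth muscle genes had a median of -1.31 over 7 genes without serum, where 5 were at least 2-fold lower (0.699% of all genes), and -0.65 over 5 genes with retinoic acid added. Over all 8 measured the medians were -1.26 and -0.84, since Cnn1 and Actg2 were under the floor on both arrays of the second comparison. The summed intensity was 10691, 4344 and 2378. The renin gene Ren1, also on the mural list, was not measured, since no probe set carried its symbol alone. The part of these cells in the Gja5 values, which renin-producing mural cells can share, was not tested.

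**Figure D4:**
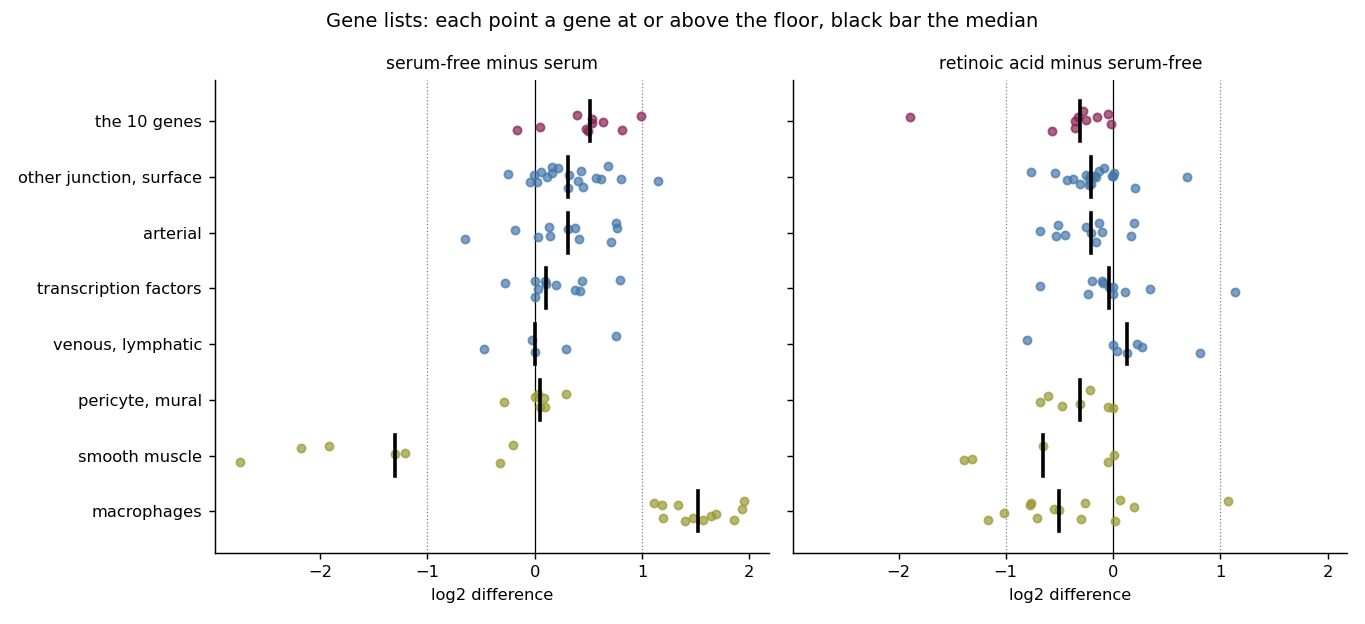
Points are genes at or above the floor, grouped by list in rows, on a horizontal axis of log2 difference, with black bars for list medians and dotted lines at 2-fold. Without serum the median of the 10 endothelial genes (0.51) lies between those of mural genes (0.05, or -0.02 with each array centred on its median) and macrophage genes (1.52 over the genes shown). The junction and surface (0.31), arterial (0.31) and transcription factor (0.10) medians lie between them too, and single points overlap. With retinoic acid added the Gja5 point at -1.89 lies apart from all other endothelial points.

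The kidney's own genes also differed between these arrays. The 11 embryonic kidney genes had a median of -0.13 without serum and -0.17 with retinoic acid added. Ret, the receptor of the ureteric bud tip, stood at 9.58, 8.42 and 9.92, and with retinoic acid added the nephron progenitor genes Cited1, Osr1 and Six2 differed by -2.13, -0.97 and -0.86. The fall was not shared by the whole list: Wt1 differed by 0.51, Sall1 by -0.17, and Pax2 was exactly equal. In all, 6 of the 11 were below 0 (35.1% of all genes), 4 above (29.5%) and 1 equal (35.4%). The part of these differences in the endothelial values was not tested.

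Of 9 measured erythroid genes 4 were at or above the floor without serum, with a median of 0.18, and the embryonic globin gene Hbb-y stood at 12.20, 12.47 and 12.39. Of 5 measured platelet genes 0 were at or above the floor in serum or serum-free medium, and 1, the integrin gene Itgb3 that other cells also make, was above it with retinoic acid at 7.60. Genes of the hypoxia response, which drives Vegfa, had a median of 0 over 9 genes without serum and -0.11 with retinoic acid added. Egln3 differed by 0.54 and 0.06, Ldha by -0.16 and -0.34, P4ha1 by -0.37 and 0.16, and Ndrg1 by 0.07 and -0.24. The 9 measured mitosis genes had a median of -0.21 without serum, where 9 of 9 were below 0 (51% of all genes), and of 0.02 with retinoic acid added. Under cyclic loess scaling 8 of the 9 were below 0 without serum.

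Likeness to the members was measured as the Euclidean distance, over the 3 arrays, between a gene's log2 values centred on their own mean and the members' median centred profile. With 3 arrays this finds many genes, and it is a description only. Among non-members at or above the floor on all arrays the nearest was Nrk, a kinase gene, at a distance of 0.042, with 8.45 in serum, 8.95 without it and 8.65 with retinoic acid. It was followed by Hmcn1 (0.054), Adgre5 (0.055), Tgfbr2 (0.058), Btbd11 (0.060), Sdc3 (0.062), Tm4sf5 (0.064) and Fat3 (0.065). Of the members, Kdr (0.041) and Tek (0.053) lay closest to this profile, and Flt1 (0.30), Eng (0.45) and Gja5 (1.14) farthest from it.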

How the data were processed

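RNA (250 ng) was labelled as biotinylated cRNA and hybridised to 1 array per medium, per the labels' protocols. The authors deposited linear intensities per probe set, from Affymetrix Expression Console 1.1 by RMA (background subtraction, quantile normalisation and median polish), per the submitters' processing notes. Its settings were not given there. Of 35556 probe sets, 21789 carried exactly 1 symbol in the platform annotation, and each gene was represented by its brightest such probe set on average. All 10 members' symbols matched RefSeq. Values were taken as log2 with no pseudocount or further scaling (Python 3.11.15, pandas 2.3.3, numpy 2.4.6), and cyclic loess, an alternative, used limma 3.58.1. Calls needed a 2-fold or 1.5-fold difference with the higher value at or above the floor (7.12, an intensity of 140). The rule was tested on simulated data, with changes set well past or well under 2-fold and little noise. That checks the code and says nothing on the error of the calls made here. The number of arrays limits the precision.

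Members and lists were chosen with earlier results of these data known. Named were all 10 members, the pathway ligands and receptors, some of the 4 genes per other list with the widest differences, and the 8 genes nearest the members' profile, without gene models and multi-copy families. Cldn5, Cd93, Emcn, Erg, Fli1, Klf2, Hey2, Nr2f2, Ephb4, Cd163, Cd14, Csf1r, Id1, Id3, Wt1, Sall1, Pax2, Xist, Eif2s3y and the motifs were chosen after values were seen.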

Additional observations from a re-analysis of the deposited data

How the results depend on the processing

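Alternatives were 32 added to the intensities, cyclic loess scaling, median centring of each array, no floor or a floor at the 60th percentile, the mean over probe sets, the mean over members, and the list without Gja5. The member median kept its sign in each comparison under each of these, from 0.44 to 0.55 without serum, from -0.42 to -0.28 with retinoic acid added, and from 0.05 to 0.15 for retinoic acid against serum. The mean in place of the median gave -0.42 for retinoic acid against serum-free medium, from -0.30. Under cyclic loess Gja5 passed 2-fold without serum (1.02), giving 1 member. Without Gja5, 0 members were 2-fold lower with retinoic acid added. At 1.5-fold the counts became 3 without serum and 1 for retinoic acid against serum. Median centring, which moved the median of all genes by -0.07 without serum, turned the sign of Flt1 there, from 0.05 to -0.02. It also took to -0.07 the medians of the VEGF, hypoxia and venous and lymphatic lists without serum, from 0, 0 and 0.00. With 32 added, Gja5 differed by -1.77 with retinoic acid added. With the floor at the 60th percentile, the member Tek dropped out of retinoic acid against serum. The median of the 9 members left was 0.14. Leaving out an array was not possible with 1 array per medium, and no difference has an error. No paired analysis was possible because each medium has 1 array. Low signal limits genes such as Flt4, Klf2, Prox1, Lyve1, Angpt1 and Jam2, which have values near the floor, where background takes up more of the intensity.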
